A study of Danio rerio with 50 samples.

Results

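How a low dose of estradiol acted on the liver was compared between 24 and 96 h of exposure in adult males of the zebrafish (Danio rerio), a freshwater laboratory fish. For each probe the difference between fish in water with 0.5 µg/L estradiol and untreated fish was taken at each time, and the 24 h difference was subtracted from the 96 h difference. This time dependence used 27 of the 50 arrays: 8 of untreated males at 24 h, 7 of untreated males at 96 h, 6 of treated males at 24 h and 6 of treated males at 96 h. The groups come from the sample titles, and no measured value was used to form them. On every array the fish sample carried the dye Cy5, and a common pool of liver RNA from untreated wild-type males and females carried Cy3, so each value is a log2 ratio of 1 fish sample over the same pool. The other arrays, of males in 5 or 50 µg/L estradiol for 24 or 96 h, entered the fit through the spread of each probe, and their own effects are set beside those of 0.5 µg/L for 4 genes. The labels call the samples biological replicates, but give no age or vehicle and are silent on whether fish were kept together by group. The p-values therefore cover the variation among the arrays at hand.

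Estradiol acts in the liver through estrogen receptors, transcription factors that bind DNA once they carry the hormone. In egg-laying females this switches on the vitellogenins, yolk precursor proteins that hepatocytes make in the rough endoplasmic reticulum (ER), secrete into the blood and deliver to growing eggs. Males hold the same genes and make little of the proteins unless they meet an estrogen, which is why male vitellogenin serves as a marker of estrogen exposure in fish.

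One array went against its label, and is called here the array labelled treated 24 h replicate 2. All samples are labelled male, but on this array the mean log2 ratio of 28 ovary markers was 0.74, where it was -1.85 to -1.23 on the other 5 treated arrays of 24 h and -2.47 to -1.23 on all the other arrays of the 4 groups. For 21 of the 28 markers it was the highest of the 27 arrays. For zp3, an egg coat protein gene, it read 0.81 against -7.02 to -2.70 on the other 26 arrays, and for buc, a gene of oocyte polarity, 1.2 against -3.79 to -2.15. For zar1, an oocyte gene needed by the early embryo, it read 1.28 against -3.98 to -1.24. The mean of 23 exocrine pancreas markers was the lowest of its group, at -0.39 against 0.12 to 1.35. Its log2 ratios correlated at r = 0.592 across probes with the mean of the other 24 h treated arrays and at 0.634 with the mean of the treated 96 h arrays, while all other arrays correlated with their own groups at 0.843 to 0.951. Probes are not independent replicates, so these values are descriptions. Whether ovary tissue or a female fish went into this sample was not tested, and results are given with and without it.

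The effect of 0.5 µg/L was larger at 96 h than at 24 h for 2 of the 6 vitellogenin genes measured, vtg7 and vtg3, and for the liver protease gene nots and the protein folding gene fkbp11. It was also larger for 8 of 106 genes of ER folding and secretion, against 0.807% of all named genes. Few genes went the other way. The ER list was written with earlier results of these data known. Of its genes, 6 were lower in the 96 h controls than in the 24 h controls. Of 22046 probes tested, 168 (0.762%) had an effect that differed between the times in limma at a Benjamini-Hochberg adjusted p under 0.05, the threshold used throughout. The effect was higher at 96 h for 154 of them (0.699% of the probes tested) and lower for 14 (0.0635%), a count that was 4 in a fit of the 27 arrays alone. At 24 h alone 113 probes (0.513%) differed from the controls, 46 higher (0.209%) and 67 lower, and at 96 h 721 probes (3.27%) did, 442 higher and 279 lower. The 24 h balance of probes turned in some fits, with 44 higher and 39 lower on the 27 arrays alone, and 38 and 26 without 24 h control replicate 1 or 39 and 28 without treated replicate 5. The higher probes include 15 of vtg3. Over 9170 named genes, each with 1 probe, 9 (0.0981%) were higher at 24 h and 32 (0.349%) lower with all arrays. After quantile normalization between arrays the 96 h counts were 419 higher and 153 lower. Of the 168 time-dependent probes, 103 passed at 96 h only, 31 at both times, 9 at 24 h only and 25 at neither time. The 31 were the 15 vtg3 probes and 16 probes without a gene name, so vtg3 counts more than once. Of 16 hepatocyte markers measured, 15 were above background on each of the 12 treated arrays, as were 20 of 23 exocrine pancreas markers.

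**Figure D1:**
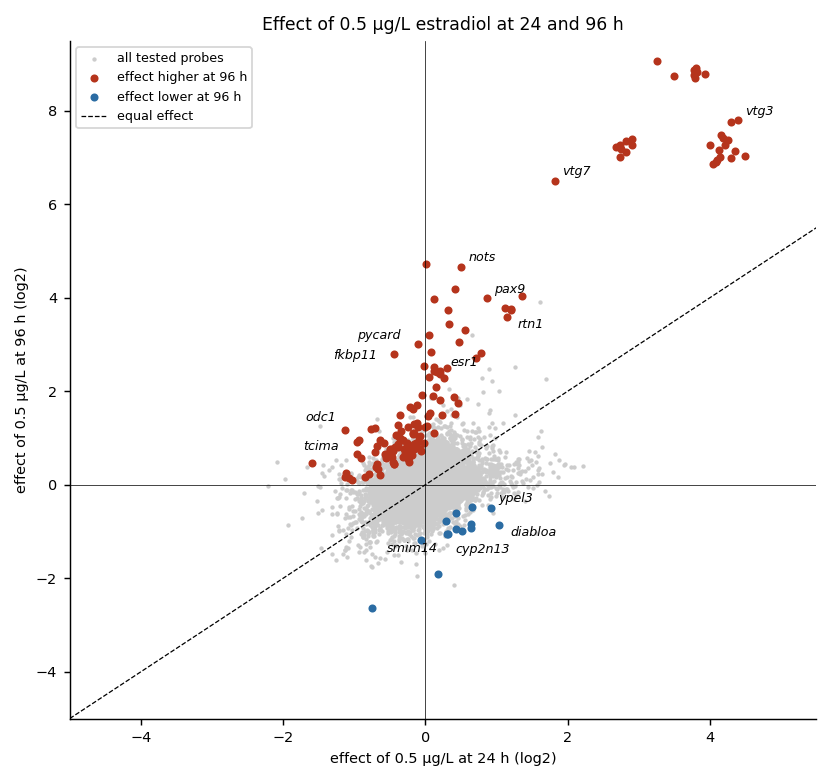
Effect of 0.5 µg/L estradiol at 24 h (horizontal) and at 96 h (vertical), each treated minus control in log2 units, for 22046 probes. Red points are the 154 probes with a higher effect at 96 h, blue points the 14 with a lower one, and the dashed line marks equal effects. The vtg3 probes and 16 saturated probes without a gene name lie at the top right, and most other red points lie near 0 at 24 h.

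The 11724 probes with 1 gene symbol covered 9170 named genes among the probes tested, each represented by its probe with the brightest reference signal. Of these, 80 genes (0.872%) were time dependent, 74 higher and 6 lower at 96 h, with absolute log2 differences of 0.78 to 4.68. Another 50 of the 168 probes have no gene name here. Among the 80 genes, 59 passed at 96 h and 5 at 24 h, and vtg3 was the 1 gene to pass at both. For 62 of the 80 genes the fitted 24 h effect had the opposite sign to the time dependence. The 24 h effect enters the time dependence with a minus sign, so that count is a description.

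Without the array labelled treated 24 h replicate 2, 245 probes (1.11%) were time dependent, 204 higher and 41 lower, with 153 of the 168 among them, 15 lost and 92 gained. The 24 h count became 70, with 40 higher and 30 lower, and the 96 h count 861, with 512 higher and 349 lower. The time dependence became 5.31 for vtg7, 4.28 for nots, 3.51 for pax9, at least 3.47 for vtg3, 3.14 for pycard, 3.13 for fkbp11 and 2.24 for esr1, all of which passed. For genes with a lower effect at 96 h it became -2.06 for diabloa, -1.77 for cyp2n13, -1.41 for smim14, -1.35 for ypel3 and -1.34 for zfp36l1b, and all of these passed too. Of the 168 probes, 68 of the 154 higher ones had this array as the highest of the treated 24 h arrays, and 10 of the 14 lower ones had it as the lowest. The same shares over all probes were not counted, so nothing is read from these counts. The genes lost with the smallest p were tram1, lum, vegfc and stt3a, at adjusted p of 0.0554, 0.0501, 0.0529 and 0.0529 against 0.0352, 0.041, 0.039 and 0.0428 with it. Among those gained, the splicing factor gene snu13b went from 0.95 (adjusted p = 0.131) to 1.2 (adjusted p = 0.00413), and selenop2 went from -1.11 to -1.32 (adjusted p = 0.0267).

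**Figure D2:**
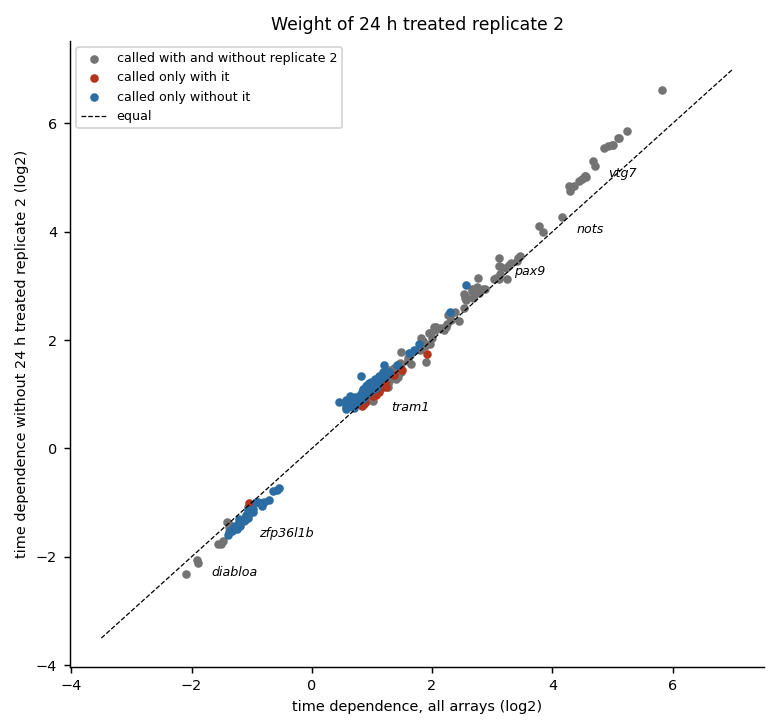
Time dependence with all arrays (horizontal) and without the array labelled treated 24 h replicate 2 (vertical), in log2 units, for the 260 probes called in either fit. Grey probes were called in both, red only with the array and blue only without it. Large rises such as vtg7 and pax9 lie above the dashed line of equal values.

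The vitellogenins and the estrogen receptors were examined first. For vtg7, a yolk precursor gene measured by 1 probe, the log2 ratios (lowest, median and highest array) were -4.52, -3.5 and -2.53 in the 24 h controls, -4.53, -3.87 and -2.20 in the 96 h controls, -4.91, -1.53 and 1.52 in treated livers at 24 h, and 2.16, 2.80 and 3.77 in treated livers at 96 h. All 6 treated 96 h arrays lay above every other array. Of the treated 24 h arrays, replicate 4 (65.7% of Cy5 spots above background) read -4.91, below the lowest control. The array labelled replicate 2, high for ovary markers, read 1.52 and lay nearest the 96 h arrays. The remaining treated 24 h arrays read -2.305 to -1.069. The 24 h effect was 1.82 ± 0.51 (log2 difference ± SE, adjusted p = 0.088), the 96 h effect 6.50 ± 0.52 (adjusted p = 5e-14), and their difference 4.68 ± 0.73 (adjusted p = 2.83e-05). It was 4.025 without treated 24 h replicate 4, which moves the fold by over 1.5 times. In bulk liver, a larger share of cells that make an mRNA and more of it per cell cannot be told apart.

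For vtg3, a yolk precursor gene of the phosvitin-less type, the log2 ratios were -3.86, -3.40 and -2.66 in the 24 h controls, -4.35, -3.34 and -2.25 in the 96 h controls, 0.06, 1.05 and 2.27 in treated livers at 24 h, and 3.90, 4.53 and 4.96 in treated livers at 96 h. The 4 groups separated into controls, treated 24 h and treated 96 h without overlap. The probe was saturated in Cy5 on all 6 treated 96 h arrays and on none at 24 h, so its 96 h level is a lower bound. Its effect was 4.39 at 24 h and at least 7.80 at 96 h, and the time dependence was at least 3.41 ± 0.41 (adjusted p = 1.95e-07), or at least 10.6-fold. All 15 vtg3 probes were time dependent, with differences of 2.53 to 3.47, and 13 of them were saturated on all 6 treated 96 h arrays.

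The probes named vtg2, vtg4, vtg5 and vtg6 did not pass the test for time dependence, with differences of 0.48, -0.34, 0.08 and -0.17. Another 16 probes that have no gene name here were saturated on all 6 treated 96 h arrays, with a time dependence of at least 4.28 to 5.82 and 24 h effects of 2.68 to 3.93. Vitellogenin genes share much of their sequence, and how far a probe binds the transcripts of more than 1 of them was not tested.

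For esr1, the estrogen receptor whose own gene is known to be raised by estradiol in fish liver, the log2 ratios were -0.39, 0.13 and 0.61 in the 24 h controls, -0.24, 0.16 and 0.55 in the 96 h controls, 0.05, 0.28 and 0.75 in treated livers at 24 h, and 1.73, 2.56 and 3.18 in treated livers at 96 h. The treated 96 h arrays lay above all others, and the other 3 groups overlapped. The effect was 0.20 ± 0.32 at 24 h and 2.43 ± 0.33 at 96 h, a difference of 2.23 ± 0.45 (adjusted p = 0.00354). Its Cy5 spot was above background on 1 of 6 treated arrays at 24 h and on 4 of 6 at 96 h, so both levels rest on a dim probe. The other estrogen receptor genes, esr2a and esr2b, had differences of 0.36 and 0.58 that did not pass (adjusted p = 0.751 and 0.646).

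Genes other than the yolk genes and their receptor followed. For nots, which encodes nothepsin, an aspartic protease of the female fish liver, the log2 ratios were -0.82, -0.26 and 0.09 in the 24 h controls, -0.93, -0.27 and -0.07 in the 96 h controls, -0.27, 0.13 and 0.83 in treated livers at 24 h, and 3.12, 4.41 and 4.98 in treated livers at 96 h. The 6 treated 96 h arrays stood clear of all others, which overlapped among themselves. The effect was 0.51 at 24 h (adjusted p = 0.496) and 4.67 at 96 h, a time dependence of 4.16 ± 0.38 (adjusted p = 2e-10) or 17.9-fold, with a control difference of -0.17.

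For pycard, the adaptor protein of inflammasomes, the log2 ratios were -1.85, -1.73 and -1.1 in the 24 h controls, -2.55, -2.06 and -1.38 in the 96 h controls, -2.10, -1.71 and -0.97 in treated livers at 24 h, and 0.17, 0.83 and 1.86 in treated livers at 96 h. Here too the treated 96 h arrays lay apart from the other 3 groups. The time dependence was 3.11 ± 0.41 (adjusted p = 1.28e-06), with effects of -0.10 at 24 h and 3.01 at 96 h. Its Cy5 spot was above background on 3 of 6 treated arrays at 24 h and on all 6 at 96 h.

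For pax9, a paired-box transcription factor, the log2 ratios were -2.05, -1.48 and -0.75 in the 24 h controls, -2.07, -1.46 and -0.62 in the 96 h controls, -2.03, -0.61 and 1.4 in treated livers at 24 h, and 1.66, 2.65 and 3.26 in treated livers at 96 h. The treated 96 h arrays were above all others, and 1 treated 24 h array, the one labelled replicate 2, lay just below them. The time dependence was 3.12 ± 0.54 (adjusted p = 0.000257). The number of its probe follows by 1 that of a rising probe that was saturated in Cy5 on all 6 treated 96 h arrays.

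For fkbp11, a prolyl isomerase of the ER that folds secreted proteins, the log2 ratios were 0.64, 1.07 and 1.56 in the 24 h controls, -1.16, -0.53 and 1.05 in the 96 h controls, 0.05, 0.77 and 1.16 in treated livers at 24 h, and 1.6, 2.64 and 2.86 in treated livers at 96 h. The treated 96 h arrays were the highest, and 6 of the 7 controls at 96 h lay below every control at 24 h. The controls fell by 1.5 between the times (adjusted p = 0.00566) and the treated livers rose by 1.74 (adjusted p = 0.00117), so both sides went into a time dependence of 3.24 ± 0.46 (adjusted p = 4.33e-06).

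**Figure D3:**
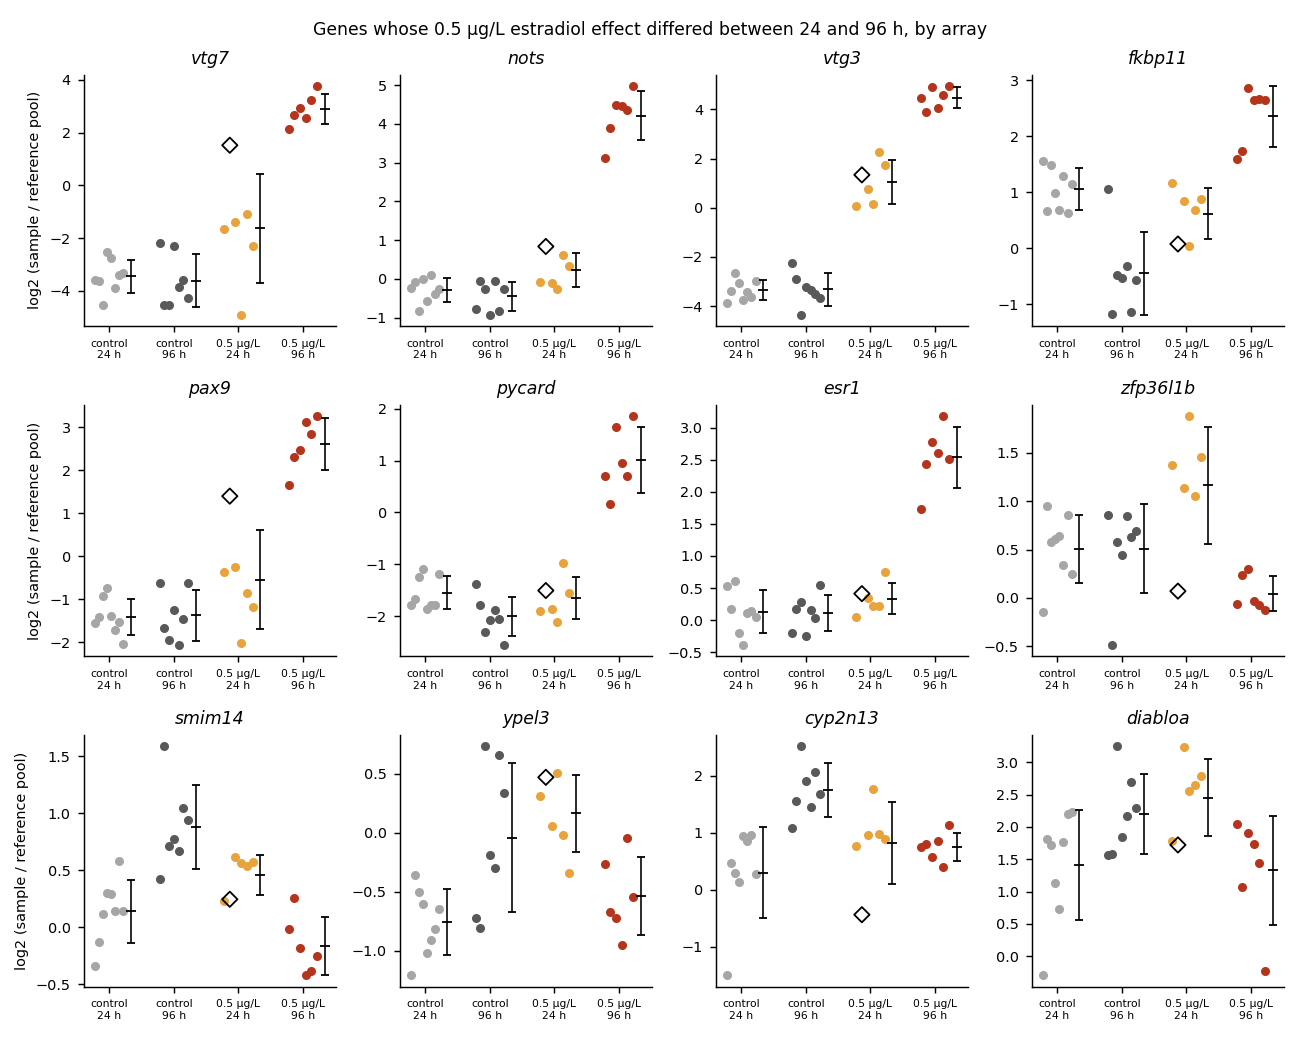
Log2 ratio of fish liver to reference pool on each array (points) for 12 time-dependent genes in untreated livers and in livers treated with 0.5 µg/L estradiol at 24 and 96 h. Bars show the mean and SD of a group, and the open diamond is the array labelled treated 24 h replicate 2. For vtg7, nots, vtg3, fkbp11, pax9, pycard and esr1 the treated 96 h arrays lie above all others, while for the 5 genes with a lower effect at 96 h they overlap the other groups.

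The next largest rises in time dependence were 2.76 for slc22a23, a solute carrier, and 2.75 for cyp2k16, a cytochrome P450. They were followed by 2.57 for nubpl, which helps build iron-sulfur clusters of respiratory complex I, 2.56 for rad52, a protein of recombinational DNA repair, and 2.44 for rtn1, a reticulon that shapes ER membrane. These 5 genes had 24 h effects of 0.07, 0.56, 0.48, -0.02 and 1.15, none of which passed, and 96 h effects of 2.83, 3.31, 3.05, 2.54 and 3.59, all of which did. Their control groups differed by -0.52 to 0.24. Of the 10 genes measured in a list of estrogen-raised liver genes that earlier work on these arrays picked, 8 rose in time dependence, which is no independent evidence of direction.

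Genes with a lower effect at 96 h were fewer and their differences smaller. For zfp36l1b, an RNA-binding protein of mRNA decay, the log2 ratios were -0.15, 0.59 and 0.95 in the 24 h controls, -0.49, 0.63 and 0.85 in the 96 h controls, 0.07, 1.26 and 1.88 in treated livers at 24 h, and -0.13, -0.05 and 0.30 in treated livers at 96 h. All 6 treated 96 h arrays lay below 5 of the 6 treated 24 h arrays but within the range of the controls. The controls did not differ in the mean (0.00), the treated livers fell by 1.12 between the times (adjusted p = 0.000972), and the time dependence was -1.12 ± 0.29 (adjusted p = 0.0467). The 24 h effect of 0.66 did not pass with all arrays, and was 0.87 (adjusted p = 0.0162) without the array labelled replicate 2.

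For smim14, which encodes a small membrane protein, the log2 ratios were -0.34, 0.14 and 0.58 in the 24 h controls, 0.42, 0.77 and 1.59 in the 96 h controls, 0.23, 0.55 and 0.61 in treated livers at 24 h, and -0.42, -0.22 and 0.25 in treated livers at 96 h. Treated and control arrays did not overlap at 96 h and did overlap at 24 h. The time dependence was -1.37 ± 0.26 (adjusted p = 0.000877), of which the rise of the controls made up 0.74 (adjusted p = 0.0162).

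For cyp2n13, a cytochrome P450, the log2 ratios were -1.5, 0.38 and 0.96 in the 24 h controls, 1.08, 1.68 and 2.52 in the 96 h controls, -0.44, 0.92 and 1.77 in treated livers at 24 h, and 0.40, 0.77 and 1.14 in treated livers at 96 h. The 96 h controls were the group that stood above the 24 h controls, with no overlap between these 2 groups. The controls rose by 1.45 (adjusted p = 0.00125) while the treated livers differed by -0.07 (adjusted p = 0.986), and the time dependence was -1.52 ± 0.38 (adjusted p = 0.0389).

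For ypel3, a Yippee-like protein, the log2 ratios were -1.21, -0.73 and -0.36 in the 24 h controls, -0.80, -0.19 and 0.73 in the 96 h controls, -0.34, 0.19 and 0.51 in treated livers at 24 h, and -0.95, -0.61 and -0.04 in treated livers at 96 h. The treated 24 h arrays were all above the 24 h controls, and at 96 h treated and control arrays overlapped. The effect was 0.92 at 24 h (adjusted p = 0.0163) and -0.49 at 96 h (adjusted p = 0.236), a time dependence of -1.42 ± 0.30 (adjusted p = 0.00572). Without the array labelled treated 24 h replicate 2 the 24 h effect was 0.86 and did not pass (adjusted p = 0.0634).

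For diabloa, a mitochondrial protein that binds inhibitors of apoptosis, the log2 ratios were -0.29, 1.74 and 2.23 in the 24 h controls, 1.57, 2.16 and 3.25 in the 96 h controls, 1.72, 2.61 and 3.23 in treated livers at 24 h, and -0.23, 1.59 and 2.05 in treated livers at 96 h. All 4 groups overlapped in part. Neither the 24 h effect of 1.04 nor the 96 h effect of -0.87 passed, and their difference of -1.91 ± 0.50 passed at an adjusted p of 0.0496, just under the threshold. When each of the 27 arrays was left out in turn, smim14 and ypel3 passed every time, while diabloa passed in 11, cyp2n13 in 12 and zfp36l1b in 7 of the 27 fits, with adjusted p up to 0.142, 0.112 and 0.13. In a fit of the 27 arrays alone these 3 genes did not pass, at the same differences.

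The difference of differences can come from either side, so each probe was checked for a change between the control groups. Between 24 and 96 h, 224 probes (1.02%) differed in untreated livers, 64 higher and 160 lower, and 247 (1.12%) differed in treated livers, 208 higher (0.943%) and 39 lower (267 and 95 after quantile normalization). Of the 168 time-dependent probes, 105 had passed on the treated side and not on the control side, 25 on the control side alone, 3 on both and 35 on neither. The treated side was the larger for 130 and the control side for 38. In 140 of the 168 the control difference ran against the time dependence and so added to it. The controls are part of the contrast that chose these probes, and nothing is read from that count.

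**Figure D4:**
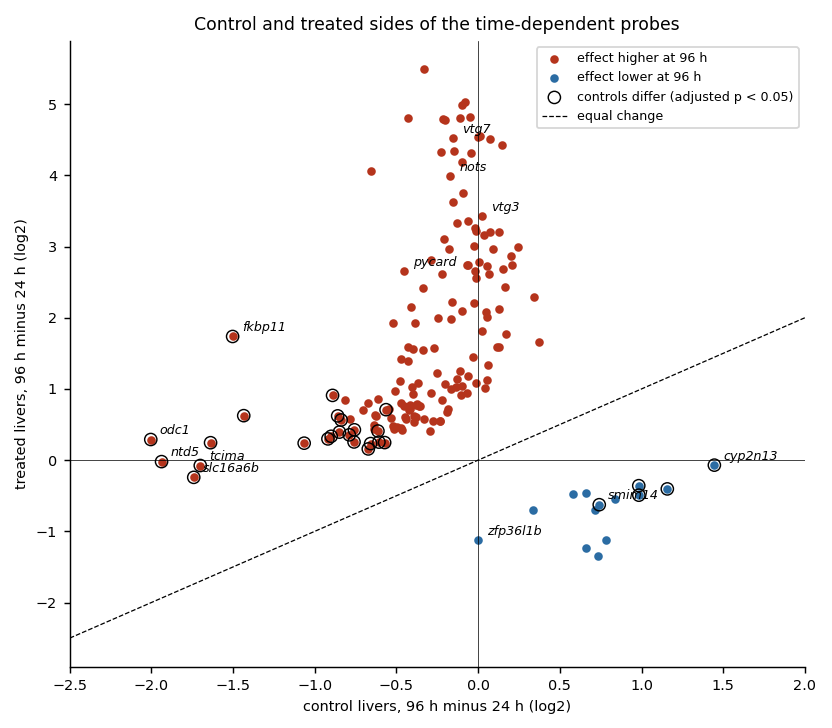
Change from 24 to 96 h in untreated livers (horizontal) and in livers treated with 0.5 µg/L (vertical), in log2 units, for the 168 time-dependent probes. Circles mark the 28 probes whose control groups differed. Most red points lie high near 0 on the control axis, while odc1, ntd5, tcima and slc16a6b lie at -2.0 to -1.70 on it with treated changes near 0.

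The 4 time-dependent genes with the largest control change were odc1, ntd5, slc16a6b and tcima. For odc1, ornithine decarboxylase, the first enzyme of polyamine synthesis, the log2 ratios were -1.11, 0.31 and 2.38 in the 24 h controls, -2.19, -1.90 and -0.97 in the 96 h controls, -1.2, -0.89 and -0.01 in treated livers at 24 h, and -1.35, -0.48 and 0.02 in treated livers at 96 h. The 96 h controls were the low group, and the treated groups overlapped each other. The controls fell by 2.0 (adjusted p = 0.000685) and the treated livers differed by 0.29 (adjusted p = 0.911), which gave a time dependence of 2.29 ± 0.51 (adjusted p = 0.01). Control falls of 1.94, 1.74 and 1.70 stood behind time dependences of 1.92, 1.5 and 1.63 for ntd5, the monocarboxylate transporter gene slc16a6b and the immune response regulator gene tcima, whose treated livers differed by -0.02, -0.24 and -0.08. With the control groups pooled, these 3 differences took the treated values and their sign turned, and that of odc1 became 0.29 and did not pass. With each array left out in turn odc1 and tcima passed in all 27 fits, ntd5 in 9 and slc16a6b in 10. Without the array labelled treated 24 h replicate 2, ntd5 and slc16a6b did not pass (adjusted p = 0.0741 and 0.0559). The second tcima probe gave a time dependence of 0.22 that did not pass.

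Markers of exocrine pancreas, tissue that lies close to the liver in fish, also differed between the control groups. None of the 23 markers measured passed for time dependence (median 0.54), while 9 of the 23 were lower in the 96 h controls than in the 24 h controls, with a median difference of -1.24, where 1.1% of all named genes were lower. The mean log2 ratio of the 23 markers ran from -0.80 to 0.83 in the 24 h controls, -2.27 to 0.26 in the 96 h controls, -0.39 to 1.35 in treated livers at 24 h, and -0.23 to 0.37 in treated livers at 96 h. Of the 23 markers, 20 were above background on all 12 treated arrays. With this mean as a covariate in a fit of the 27 arrays, an alternative added after the data were seen, 210 probes passed and 141 of them were among the 168. The same 27 arrays without the covariate gave 151.

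The ER is where secreted proteins such as vitellogenin are threaded through the membrane, folded and given sugars. Of 106 genes measured in a list of ER folding and secretion, 8 rose in time dependence and none fell (7.55%, against 0.872% of all named genes), with a median of 0.64 against 0.02 for all named genes. At 24 h 5 of the 106 were lower than in controls and none higher (0.349% of all named genes were lower), and the median effect was -0.37. At 96 h 13 were higher and none lower (2.65% of all named genes were higher), with a median of 0.18. The control groups differed in 6, all lower at 96 h (1.1% of all named genes), with a median of -0.37. In treated livers 3 of the 106 were higher at 96 h than at 24 h and none lower (0.96% of all named genes were higher), with a median of 0.26. In the fit of the 27 arrays alone 9 of the 106 rose in time dependence, and with the pancreas covariate added to that fit 13 did. Of the 9170 named genes 62 rose in the first of these fits and 80 in the second. After quantile normalization 6 of the 106 rose, where 67 of the 9170 did, and without centring 8 of the 106 rose, where 71 did. Without the array labelled treated 24 h replicate 2, 8 of the 106 rose, 7 of them among the same 8 genes, where 1.1% of all named genes rose.

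The 8 genes had time dependences of 1.01 to 1.96. They were mcfd2 and lman1, which together form a cargo receptor from the ER to the Golgi, ssr1 and ssr3 of the translocon-associated complex, ddost, rpn1 and stt3a of the oligosaccharyltransferase that adds N-linked sugars, and spcs3 of the signal peptidase. All 8 passed at 96 h and none at 24 h. Both effects are terms of the contrast that chose these genes, so this is a description. From 24 to 96 h 3 of the 8 passed in treated livers alone, 1 in controls alone and 4 in neither. For mcfd2 the log2 ratios were 0.88, 1.64 and 2.4 in the 24 h controls, 0.79, 1.14 and 1.66 in the 96 h controls, 0.32, 0.81 and 1.1 in treated livers at 24 h, and 1.64, 2.28 and 3.01 in treated livers at 96 h. The treated 24 h group was the lowest of the 4 in its median and the treated 96 h group the highest. The difference was 1.96 ± 0.39 (adjusted p = 0.00223), and both mcfd2 probes passed. For ssr1 the treated 96 h arrays, from 2.08 to 2.77, lay above all others, the highest of which was a 24 h control at 2.04, and the difference was 1.45 ± 0.31 (adjusted p = 0.00687). The control groups differed in 1 of the 8, spcs3, by -0.85 (adjusted p = 0.0142). With each array left out in turn, stt3a passed in 7 of the 27 fits, rpn1 in 19 and the other 6 genes in all. The other 2 stt3a probes gave time dependences of 0.93 and 0.91 that did not pass (adjusted p = 0.0777 and 0.0867).

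Another 10 time-dependent genes belong to the secretory pathway but to no list here, and were picked after their values were seen: fkbp2, ppib, slc35b1, tram1, rrbp1a, nucb2a, rab1ba, bcap31, hm13 and tmem208. Their time dependences ran from 0.88 to 1.80, and 4 of the 10 passed at 96 h. They were picked among called genes, so nothing is read from them.

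Lists of genes of protein synthesis were described next. Of 21 aminoacyl-tRNA synthetases, which load amino acids onto tRNA, 3 rose in time dependence and none fell (14.3%, against 0.872% of all named genes). The median was 0.68, and 20 of the 21 lay above 0, as did 4743 of the 9170 named genes. From 24 to 96 h none of the 21 passed in treated livers (median 0.34), where 0.96% of all named genes were higher. In the controls 2 of the 21 were lower at 96 h (median -0.29), where 1.1% of all named genes were. The 3 genes that rose in time dependence were yars1 at 1.24, wars1 at 1.18 and sars1 at 0.98. For yars1 and wars1 the controls were also lower at 96 h, by 0.90 and 0.76 on the log2 scale in size (adjusted p = 0.0189 and 0.0472), and on the 27 arrays alone 1 of the 21 passed. Without the array labelled treated 24 h replicate 2 yars1 did not pass (adjusted p = 0.0658). With each array left out in turn yars1 and wars1 passed in 9 of 27 fits each and sars1 in 26.

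Of 76 translation factors 5 rose and none fell (6.58%, against 0.872% of all named genes), with a median of 0.32. For abce1, which recycles ribosomes, the log2 ratios were -0.42, 0.10 and 0.42 in the 24 h controls, -1.41, -0.47 and -0.19 in the 96 h controls, -0.55, -0.27 and 0.01 in treated livers at 24 h, and 0.27, 0.47 and 0.59 in treated livers at 96 h. At 96 h treated and control arrays did not overlap, and at 24 h they did. Its time dependence was 1.27 ± 0.22 (adjusted p = 0.000221), with a control difference of -0.56 (adjusted p = 0.0412). The others included the helicase eif4a1a at 1.13, the scaffold eif4g1a at 1.19 and eif5a2 at 1.12. Each of these 3 has a second probe that did not pass, at 0.23, 1.07 and 0.07.

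Of 76 ribosome biogenesis genes 3 rose and none fell (3.95%, against 0.872% of all named genes), with a median of 0.38. The 3 genes were nhp2 at 1.29, rrp12 at 1.14 and nop2 at 1.00. Without the array labelled treated 24 h replicate 2, 7 of these 76 genes and 7 of the 76 translation factors rose. In that fit 1.1% of all named genes rose. Of 67 genes in a list of cytosolic ribosomal proteins 1 rose (1.49%, against 0.872% of all named genes), the L7-like gene rpl7l1 at 0.90. The median was 0.33, and 54 of the 67 lay above 0, as did 4743 of the 9170 named genes. With each array left out in turn nop2 passed in all 27 fits, nhp2 in 16, rrp12 in 11 and rpl7l1 in 9. Among 50 proteasome subunits none passed and the median was 0.29. No set test was run on these lists, which were written with earlier results of these data known.

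**Figure D5:**
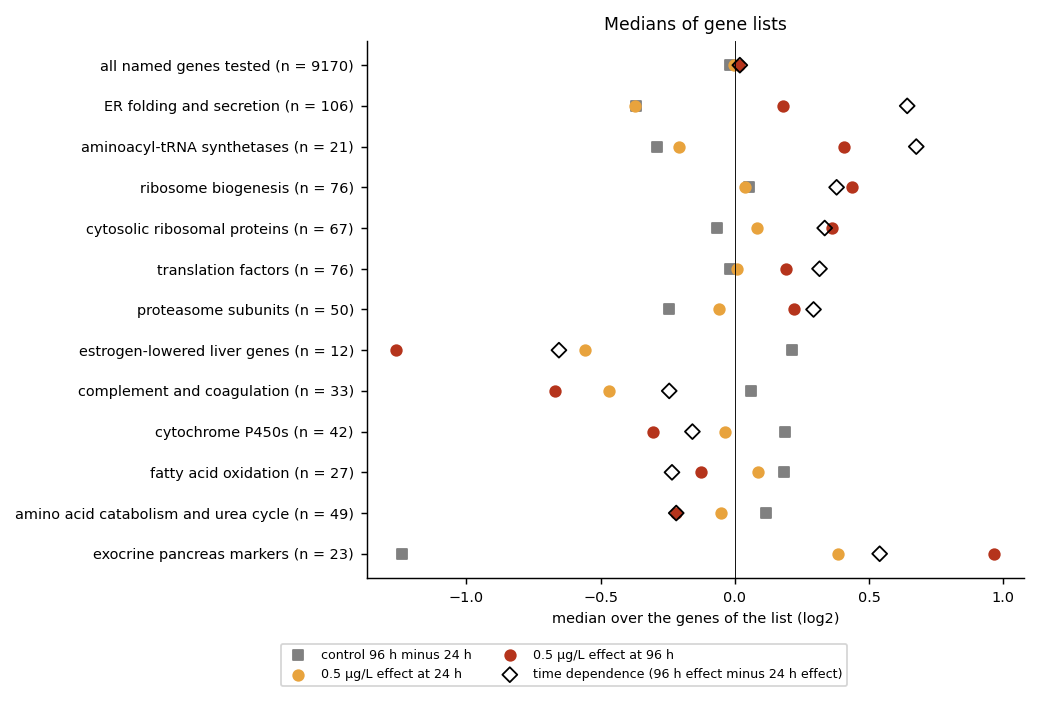
Medians over the genes of each list, in log2 units, of the control change from 24 to 96 h (grey squares), the 0.5 µg/L effect at 24 h (orange) and at 96 h (red), and the time dependence (open diamonds). The ER and tRNA synthetase lists have medians below 0 at 24 h and above 0 at 96 h, while the estrogen-lowered genes have medians below 0 at both times. Those genes were picked in earlier work on these arrays, so their direction is no independent evidence.

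Liver genes that estradiol lowers showed no called time dependence. None of the 12 genes measured in a list of estrogen-lowered genes, picked in earlier work on these arrays, passed, although all 12 differences were below 0 with a median of -0.66. At 96 h 8 of the 12 had fallen (1.12% of all named genes had), with a median effect of -1.26, and at 24 h none had, with a median of -0.56. The genes were picked on these same arrays as lowered by estradiol, so these falls are no independent evidence of direction. For hpxa, hemopexin, which binds free heme in plasma, the log2 ratios were 0.41, 2.36 and 3.62 in the 24 h controls, 1.62, 2.58 and 3.45 in the 96 h controls, 1.44, 2.65 and 3.55 in treated livers at 24 h, and -2.13, 0.80 and 1.15 in treated livers at 96 h. At 96 h the treated arrays lay below all controls, while at 24 h the groups overlapped, and the difference of -2.55 ± 0.81 did not pass (adjusted p = 0.163). For selenop2, a plasma selenium carrier, the difference was -1.11 ± 0.34 (adjusted p = 0.134), and it is the 1 gene of the 12 that passed without the array labelled treated 24 h replicate 2. A difference that misses the threshold does not show equal effects at the 2 times.

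Of 33 complement and coagulation genes none passed for time dependence, with a median of -0.24. Their median effect was -0.47 at 24 h and -0.67 at 96 h, and 1 and 4 of them were lower than in controls, as were 0.349% and 1.12% of all named genes. Among 42 cytochrome P450 genes cyp2k16 rose and cyp2n13 fell (4.76%, against 0.872% of all named genes). Of 27 genes of fatty acid oxidation 1 rose (3.7%), while the list's median was -0.23. The gene was acsl1b at 1.16 ± 0.26 (adjusted p = 0.0109), an enzyme that activates long-chain fatty acids.

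A few time-dependent genes had their larger effect at 24 h. For papss2b, which makes the sulfate donor of sulfation, the effect was -1.07 at 24 h (adjusted p = 0.00677) and 0.15 at 96 h (adjusted p = 0.825), with a time dependence of 1.22 ± 0.32 (adjusted p = 0.049). Its controls fell by 0.92 between the times (adjusted p = 0.0163), and its treated livers differed by 0.30 (adjusted p = 0.802). Leaving out 1 array at a time, it passed in 9 of 27 fits, and did not without the one labelled treated 24 h replicate 2 (adjusted p = 0.0529). For tcima the 24 h effect of -0.96 and the 96 h effect of 0.67 did not pass, while their difference did. Without that array the 24 h effect was -1.06 (adjusted p = 0.0443).

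Effects of the higher doses are set side by side for nots, esr1, vtg7 and mcfd2 only, all of them rises, so other genes may differ. The 24 h effect of 5 µg/L was below the 96 h effect of 0.5 µg/L for nots and vtg7. It was above that effect for esr1 and mcfd2. For nots the 24 h effects at 0.5, 5 and 50 µg/L were 0.51, 3.41 and 4.68, and the 96 h effects 4.67, 5.90 and 6.03. For esr1 they were 0.20, 3.27 and 3.60 at 24 h and 2.43, 3.37 and 3.07 at 96 h. For vtg7 they were 1.82, 5.37 and 6.39 at 24 h and 6.50, 7.62 and 7.64 at 96 h. For mcfd2 they were -0.76, 1.26 and 2.18 at 24 h and 1.2, 2.3 and 2.55 at 96 h. The 3 doses of a time share their control arrays, and no difference between doses was tested here.

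The place of a probe in the numbering also went with its time dependence. There were 29 rising probes saturated in Cy5 on all 6 treated 96 h arrays, 13 of vtg3 and the 16 unnamed ones. Of 18 probes tested whose number was 1 above that of such a probe, 11 rose in time dependence, with a median 96 h effect of 2.62. Of 25 whose number was 2 above, 10 rose, and of 14 and 25 whose number was 1 or 2 below, 1 and 1 did. Of all probes tested 0.699% rose. Some saturated probes have adjacent numbers, so the same probe can be both 1 above and 2 above. The counts for 1 above and 2 above therefore overlap and are not separate results. Probes of ccnd1 and cxcr4a were in both, and the probes need not be of distinct genes. The probes of pax9 and slc22a23 are among those that follow by 1. Without probes that follow by 1 or 2, a choice made after the data were seen, 141 probes remained called. Whether signal of a bright spot reached its neighbours was not tested, and the numbering need not be the order on the slide.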

How the data were processed

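The deposited value table holds the authors' log2 ratio of Cy5 over Cy3 for 23232 probes and 50 arrays. It equalled the value column of the 35 treated arrays' scanner files, which per the file headers also hold spot and background brightness (intensity) in scanner units. Neither the authors' normalization nor the program that read their images is named in the sources used here, and scanner files of the controls were not analysed here. Spots with over 50% of pixels above background, per the file headers, counted as above background, and those at 65535 as saturated.

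Probes with at least 3 values in each of the 8 groups were tested, 22046 in all. Arrays were centred on their median. Group means of all 50 arrays, which share 1 spread per probe, were fitted with limma 3.58.1 (lmFit, eBayes) in R 4.3.3, with the data.table package (version 1.17.8), pandas 2.3.3 and matplotlib 3.10.9, and p-values were adjusted over all probes. On simulated data the fit recovered 48% of 50 changes of log2 size 1 and 96% of 50 of size 2. Of 179 calls there, 9 were of unchanged probes. The simulated noise was independent, with no odd array and no control change, so the simulation cannot speak to those. Lists are described by counts and medians.

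Old symbols were updated through the GRCz12tu gene table: 2993 of 10121 were current and 7015 were updated. Named genes are the up to 12 largest rises and falls without clone names, all vitellogenins and estrogen receptors, and up to 4 per list, per control change, per turned effect and per call lost or gained without treated 24 h replicate 2. The members and lists were chosen with earlier results of these data known.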

Additional observations from a re-analysis of the deposited data

Results flagged for a closer look

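The effect of 0.5 µg/L differed between 24 and 96 h for 168 probes by the test of the difference itself. Among the genes given by array the difference was 4.68 for vtg7, 4.16 for nots, at least 3.41 for vtg3, 3.24 for fkbp11, 3.12 for pax9, 3.11 for pycard and 2.23 for esr1, whose probe was above background on 1 of 6 treated arrays at 24 h. It was -1.91 for diabloa, -1.52 for cyp2n13, -1.42 for ypel3, -1.37 for smim14 and -1.12 for zfp36l1b.

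Of 56 groups of values tested for 1 sample far from the rest of its group, 4 had one, where chance gives about 1 in 20. The array labelled treated 24 h replicate 2, high for ovary markers, correlated at 0.592 with its group, and the next lowest array of that group at 0.855. For fkbp11 the 96 h control replicate 1 read 1.05, and the next highest control of that time -0.32. For cyp2n13 the 24 h control replicate 1 read -1.5, and the next lowest 0.13. For zfp36l1b the 96 h control replicate 2 read -0.49, and the next lowest 0.44. Their part in the time dependence of the genes concerned is given only by leaving out arrays. Of 27 such fits fkbp11 passed in all 27, cyp2n13 in 12 and zfp36l1b in 7. The cyp2n13 difference was smallest in size, at -1.26, without 24 h control replicate 1.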

How the results depend on the processing

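The count of 168 time-dependent probes stayed within 1.5 times under most settings. It was 151 in the 27 arrays alone, 166 without centring, 171 with quantile normalization, 166 with complete probes and 165 with 2 values per group. It was 149 with a trend and robust prior, and 126 to 245 with 1 array left out. With pooled controls the contrast is treated 96 h minus treated 24 h alone. Its 231 calls, of which 103 were among the 168, are therefore no check of the difference of differences. With the mean of each gene's probes 112 of 19672 units passed. These units are genes and single probes without a gene name, so that count is not one of genes. Array quality weights, where the array labelled treated 24 h replicate 2 weighed 0.31, gave 446, with 343 at 24 h, 1617 at 96 h and 1036 in treated livers. The control count of 224 became 124 in the 27 arrays and 125 after quantile normalization. With gene means the 24 h count of 113 became 72 genes or unnamed probes. Of 25 same-numbered pairs of arrays, 4 had deviations correlated over 0.1 (range -0.291 to 0.438). Pairs of unlike number were not compared, so these values cannot tell whether replicate numbers pair the samples. With the number as a replicate block the counts were 116 for time dependence, 56 at 24 h, 409 at 96 h, 81 in controls and 244 in treated livers. Of 42 time-dependent genes picked by the naming rules, 22 lost their call.

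With 1 array left out the counts ran from 64 to 173 at 24 h, 425 to 955 at 96 h, 99 to 395 in controls and 179 to 329 in treated livers. The 24 h count was 64 without control replicate 1, 173 without control replicate 4, and 70 and 67 without treated replicates 2 and 5. The 96 h count was 425 without control replicate 2, and 466 and 442 without treated replicates 3 and 6. The control count was 395 without 96 h replicate 1, 99 without 24 h replicate 1 or 96 h replicate 2, and 117 to 142 without 24 h replicate 2 or 96 h replicates 3 and 6. From scanner brightness with normexp and loess 222 probes differed in treated livers, against 247.

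Of these 42 genes, 25 passed with every array left out in turn, and 13 in all 39 alternative fits of genes: vtg7, vtg3, nots, fkbp11, pycard, cyp2k16, nubpl, rad52, rtn1, esr1, mcfd2, abce1 and acsl1b. The 42 are not all of the 80 time-dependent named genes. Some were picked as the largest rises, and up to 4 because they lost their call without the array labelled treated 24 h replicate 2. These counts therefore give no share for the 80. The 39 fits include the one with pooled controls. Another 3, pax9, slc22a23 and ssr1, passed in the 38 that tested them. Lower calls for time dependence, 14 with all arrays, were 4 on the 27 arrays and with the replicate block, 6 without 24 h control replicate 1 and 41 without the array labelled treated 24 h replicate 2. With pooled controls the sign turned for ntd5 (-0.0210), slc16a6b (-0.24) and tcima (-0.0755), since the control change is then 0 by construction. The causes of the other shifts were not tested. Brightness limits precision: above-background Cy5 spots made up 65.7% (24 h replicate 4) to 93.8% of the treated arrays, and the signal of the controls is not known here.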

Other observations

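Of 16 genes of cholesterol synthesis none passed for time dependence, with a median of -0.07. The median change from 24 to 96 h was 0.55 in untreated and 0.85 in treated livers, and 4 of the 16 rose in the untreated livers, where 0.349% of all named genes did. Of 71 genes of DNA replication and mitosis none passed for time dependence, while 1 was higher at 24 h and 5 at 96 h, against 0.0981% and 2.65% of all named genes. Among 30 clock genes none passed for time dependence, and at 96 h 1 was higher and 5 were lower than in controls, against 2.65% and 1.12% of all named genes. Among 12 egg coat protein genes none passed for time dependence or at either time, with a median difference of -0.32. That median was 0.10 without the array labelled treated 24 h replicate 2, which was the highest of the 27 arrays for 10 of the 12 genes, and the ovary marker median went from -0.39 to 0.05. Of 81 RNA splicing genes none passed with that array and 4 rose without it, where 1.1% of all named genes rose.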
